A study of Mus musculus with 6 samples.

Results

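The 4 TEAD factors, their coactivators YAP (gene Yap1) and TAZ (gene Wwtr1) and the 4 vestigial-like cofactors (Vgll1 to Vgll4) were described in heart ventricles of Tead1 icKO and control mice. Members were all non-control array probes whose RefSeq accession belongs to these 10 genes, which gave 14 of 55681 probes, or 10 of the 20145 genes with a named probe. The 3 icKO mice had floxed Tead1 alleles and carried Myh6-CreER, a Cre recombinase that tamoxifen activates and that the Myh6 promoter drives in cardiomyocytes. The 3 control mice had floxed Tead1 and no Cre is named in their labels. All 6 mice, labelled as biological replicates, were C57bl/6j males of 11 to 12 weeks and had been given tamoxifen. The deletion and the presence of Cre therefore cannot be told apart, and cells of the ventricle other than cardiomyocytes keep their Tead1 in icKO mice.

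TEAD factors bind DNA at short sites, first known in muscle genes as M-CAT elements, but activate transcription poorly by themselves. YAP and TAZ have no DNA-binding domain and act through TEAD factors, and the kinases of the Hippo pathway hold them in the cytoplasm. The vestigial-like proteins bind the same TEAD factors, and VGLL4 in particular competes with YAP for them.

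Of the 10 genes, 5 were higher, 1 was lower, 3 did not pass the test and 1 (Vgll1) was not tested, being too dim. Tead3, Yap1, Wwtr1, Vgll2 and Vgll3 were higher in icKO ventricles and Tead1 was lower on the scale used here. Of the 14 probes 12 were tested, and 7 passed an adjusted p of 0.05, 5 higher and 2 lower (limma, Benjamini-Hochberg over 26152 probes). Among all probes tested 44.3% passed, 16.1% higher and 28.2% lower, so a call alone sets no member apart. The median difference was 0.45 on the log2 scale over the 12 member probes and -0.13 over all probes. Over the 9 member probes above background on all 6 arrays it was 0.12, while that of all probes was -0.13. Under another background correction (normexp on the median pixel signals) it was 0.10 over the 12 probes and -0.14 over all probes. That correction adds an offset of 50 units to every signal, which by itself shrinks the differences of dim probes. The 3 icKO arrays lay above all 3 control arrays for 6 member probes and below them for 2, which was the case for 21.6% and 37.1% of all probes (58.7% in either direction). Tead4, Vgll2 and Vgll3 passed the filter on dim probes through their icKO arrays alone, so that a difference was built into their selection. Among the 6 genes above background on all 6 arrays, 3 rose and 1 fell.

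The 250 bases before the start of a member gene were read for the TEAD-binding core GGAATG (on either strand, as GGAATG or CATTCC). Sequences came from RefSeq promoters of build GRCm38.p6, which hold 8 of the 10 genes (Tead1 and Tead4 are not among them). The 5 windows shown are those of the members that rose, and capitals mark each match. For a gene with several listed starts, the window with most matches is shown, or the first listed on ties.
Yap1: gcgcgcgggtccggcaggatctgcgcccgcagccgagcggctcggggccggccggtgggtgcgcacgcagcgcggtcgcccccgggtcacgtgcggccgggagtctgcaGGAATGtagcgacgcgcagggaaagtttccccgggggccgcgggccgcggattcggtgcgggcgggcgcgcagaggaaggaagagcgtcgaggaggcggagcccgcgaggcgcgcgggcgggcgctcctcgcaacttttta
Wwtr1: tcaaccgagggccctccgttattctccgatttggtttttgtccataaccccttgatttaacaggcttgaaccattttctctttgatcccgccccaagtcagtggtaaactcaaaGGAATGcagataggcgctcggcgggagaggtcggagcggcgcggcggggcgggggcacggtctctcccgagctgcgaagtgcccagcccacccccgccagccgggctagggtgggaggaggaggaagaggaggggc
Tead3: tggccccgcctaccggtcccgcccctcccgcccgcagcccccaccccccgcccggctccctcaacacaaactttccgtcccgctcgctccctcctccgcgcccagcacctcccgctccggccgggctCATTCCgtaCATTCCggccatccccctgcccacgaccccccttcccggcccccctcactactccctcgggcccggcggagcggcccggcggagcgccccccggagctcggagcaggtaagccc
Vgll3: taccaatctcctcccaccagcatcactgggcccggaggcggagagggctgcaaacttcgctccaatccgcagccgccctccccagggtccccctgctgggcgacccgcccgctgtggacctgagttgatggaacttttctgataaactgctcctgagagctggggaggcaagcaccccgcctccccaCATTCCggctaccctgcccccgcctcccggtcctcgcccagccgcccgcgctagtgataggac
Vgll2: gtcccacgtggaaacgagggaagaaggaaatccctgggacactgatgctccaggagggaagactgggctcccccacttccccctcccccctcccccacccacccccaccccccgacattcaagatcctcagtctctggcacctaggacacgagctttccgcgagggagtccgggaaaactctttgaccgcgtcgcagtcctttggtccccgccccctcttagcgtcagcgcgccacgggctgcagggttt
They lie at chr9:8004597-8004846 (minus strand) for Yap1, chr3:57575911-57576160 (minus strand) for the first listed start of Wwtr1 and chr17:28350601-28350850 (minus strand) for the second listed start of Tead3. The Vgll3 window is chr16:65814939-65815188 (plus strand) and the Vgll2 window chr10:52022252-52022501 (plus strand).

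Matches were found in 6 of the 8 genes, or 8 of their 11 windows, against 12.6% of all 32851 windows of this length. Both Wwtr1 windows overlap and share 1 match. The Yap1 match begins at -141 and the Wwtr1 match at -136 from the start. Of the 3 listed starts of Tead3, the printed one holds a pair of matches, at -123 and -114, on the strand opposite to the gene, the first holds 1 at -182 on the gene's own strand, and the third holds none. Vgll3 has a match at -63 on the opposite strand. Vgll2 has none in this window, and neither does Tead2. Vgll4, which did not pass the test, and Vgll1, which was not tested, hold a match each, at -82 and -162. The AP-1 motif TGANTCA, where N is any base, was in 0 of the 11 member windows and in 6.75% of all windows. A match describes these letters and is not shown to be bound.

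**Figure D1:**
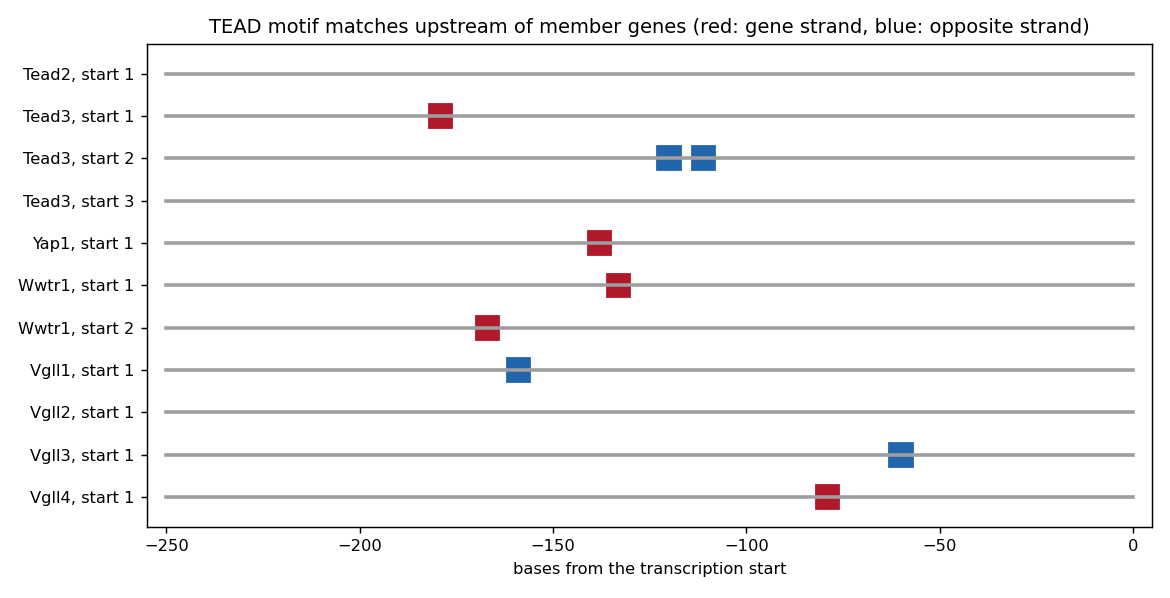
Positions of the TEAD-binding core in the 250 bases before each of the 11 listed starts of member genes, in bases from the start, red on the strand of the gene and blue on the opposite strand. Yap1, Wwtr1, Tead3, Vgll1, Vgll3 and Vgll4 hold a match at 1 start or more, and Tead2 and Vgll2 hold none.

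Each array's signal was divided by its own 75th percentile, which was 312, 348 and 292 units on the icKO arrays and 189, 233 and 215 units on the control arrays. A gene with equal signal in both groups therefore comes out lower in icKO. Scaling to the array medians, to 160 spike-in spots or not at all adds 0.16, 0.44 or 0.58 to every log2 difference. Of all calls 36.3% were higher in icKO with the 75th percentile, 55.2% with the medians, 81.5% with the spike-ins and 88.9% with no scaling. Since these scalings only add to a difference, the 5 member probes called higher could not turn lower under them. The 2 called lower, both of Tead1, lost their call under each, and turned positive with the spike-ins and with no scaling. All 6 arrays lay on 1 slide, the icKO arrays in slide columns 2, 3 and 3 and the control arrays in columns 1, 1 and 2. Fibroblast and macrophage markers also moved with the genotype. Of 12 fibroblast markers 8 rose and 0 fell, and their summed level was 970.4 to 1118 on icKO arrays and 444.4 to 657.5 on control arrays, in units of the 75th percentile. Of 11 macrophage markers tested 9 rose and 0 fell, with sums of 145.7 to 178.8 in icKO and 78.9 to 102.5 in control. Of 12 cardiomyocyte markers 11 fell, with sums of 6353 to 7109 in icKO and 10194 to 12176 in control, so the labelled tissue showed its defining markers in both groups. Only 7 of these 12 fell with median scaling, 4 with spike-in scaling, and 2 with no scaling, where 1 rose. With spike-in scaling 10 fibroblast and 10 macrophage markers rose and 0 fell. In whole ventricle, fewer cells of a type and less RNA per cell cannot be told apart. Of the other marker lists, 1 rose and 3 fell of 10 endothelial genes, 1 and 4 of 10 smooth muscle and pericyte genes, 2 and 0 of 6 epicardial, 2 and 0 of 5 erythrocyte and platelet, 1 and 2 of 5 lymphocyte and 1 and 2 of 5 neural and Schwann genes. With spike-in scaling the endothelial counts became 2 and 0 and the smooth muscle counts 2 and 2. What these markers contribute to the member differences was not tested.

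Tead1 is the TEAD factor that the study deletes. Its brightest probe (A_51_P214423) read 3955, 3783 and 3202 signal units on icKO arrays 1, 2 and 3 and 3052, 3206 and 3347 units on control arrays 1, 2 and 3. The unscaled groups overlap, and the icKO signals are not lower as read. As a percentage of each array's 75th percentile the same spots gave 1268%, 1089% and 1097% in icKO and 1614%, 1379% and 1556% in control, where every icKO array lies below every control array. The scaled log2 level was 3.52 ± 0.12 in icKO and 3.92 ± 0.12 in control (SD, n = 3 each), a difference of -0.40 ± 0.11 (SE; 95% interval -0.67 to -0.12; limma adjusted p = 0.0304). The icKO level was 0.759 of the control level on this scale.

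The other Tead1 probes behaved alike in part. Probe A_55_P2011390 read 329, 413 and 295 units in icKO and 261, 331 and 336 units in control, which after scaling gave -0.43 ± 0.11 (SE; limma adjusted p = 0.0202) with no overlap between the groups. Probe A_55_P2159885 read 195, 217 and 164 units in icKO and 127, 143 and 168 units in control, which gave -0.19 ± 0.12 with overlapping groups (limma adjusted p = 0.25). Both Tead1 calls were lost with median scaling (-0.24 and -0.27), and the differences turned positive with spike-in scaling (0.04 and 0.01) and with no scaling between arrays (0.18 and 0.15), none of them passing the test. Leaving out 1 array at a time also ended the call of the brightest probe without icKO replicate 2 (-0.36), icKO replicate 3 (-0.37), control replicate 1 (-0.35) or control replicate 3 (-0.38). For the second probe the call ended without icKO replicate 3 (-0.38), control replicate 2 (-0.44) or control replicate 3 (-0.37). Both calls also ended with no filter on dim probes (limma adjusted p = 0.117 and 0.0884) and with replicate number as a block (0.0524 and 0.0624). That of the brightest probe ended as well with slide row as a block (0.063) and in the authors' deposited table (0.0509). The sources used here do not place the probes within or outside the deleted exons, and so they give no check of the genotype.

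**Figure D2:**
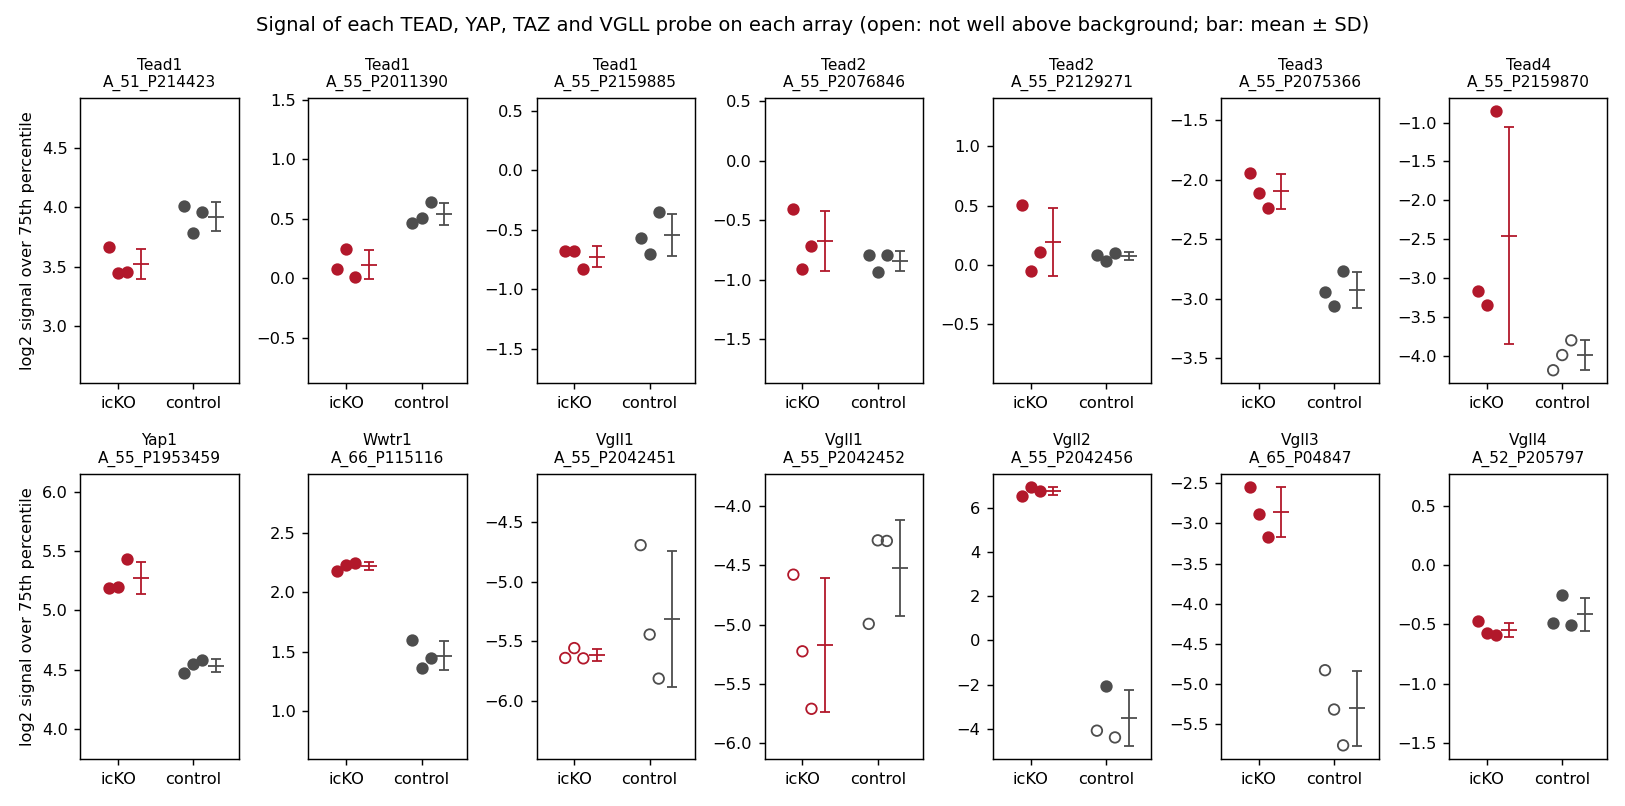
Log2 signal of each member probe over its array's 75th percentile, per array, with icKO arrays left of control arrays, open points where the spot was not well above background, and a bar for the mean ± SD (n = 3 each). Each panel has its own axis. Vgll2 lies at 6.79 ± 0.20 in icKO and -3.52 ± 1.26 in control, while the groups overlap for Tead2 and Vgll4.

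Tead2, a TEAD factor known for its early embryonic expression, was measured by a pair of probes. Probe A_55_P2129271 read 443, 336 and 315 units in icKO and 201, 238 and 230.4 units in control. The scaled difference was 0.12 ± 0.15 (SE; limma adjusted p = 0.568), with a 95% interval of -0.26 to 0.49, an interval that holds values on both sides of 0. Probe A_55_P2076846 read 236, 185 and 177 units in icKO and 109, 121 and 124 units in control, with a scaled difference of 0.17 ± 0.15 (limma adjusted p = 0.39). On both probes icKO replicate 1 was the highest of the 6 arrays and the groups overlapped after scaling. Under spike-in scaling probe A_55_P2076846 passed (0.61; limma adjusted p = 0.0354). With no scaling the unscaled gap itself is tested, and both probes passed (0.70 and 0.75; limma adjusted p = 0.0128 and 0.00702).

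Tead3, known from placenta and muscle, read 80.9, 80.4 and 61.9 units in icKO and 24.5, 27.8 and 31.6 units in control on its only probe (A_55_P2075366). All icKO arrays were above all control arrays. The scaled log2 level was -2.10 ± 0.15 in icKO and -2.93 ± 0.15 in control (SD, n = 3 each), which is 1.77-fold higher (0.83 ± 0.13, SE; limma adjusted p = 0.00339). The probe is dim, and with normexp the difference was 0.08 (limma adjusted p = 0.527). The normexp offset of 50 units by itself shrinks the difference of a probe this dim.

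Tead4, a TEAD factor of trophoblast and of skeletal myoblasts, read 34.7, 34.3 and 162 units in icKO and 10.4, 14.6 and 15.4 units in control (A_55_P2159870). All 3 icKO spots were well above background and 0 of the 3 control spots were, so control has only a bound. Replicate 3 stood far above the other icKO arrays. Tead4 was at least 2.21-fold brighter in icKO, with a fitted difference of 1.54 ± 0.64 that did not pass the test (SE; limma adjusted p = 0.0951). Without icKO replicate 3 the bound was 1.268-fold and the fitted difference 0.74 (limma adjusted p = 0.0206), so 1 array sets the size, and the call turned on it. With all 6 arrays Tead4 also passed under spike-in scaling (1.98; limma adjusted p = 0.0313) and with no scaling (2.12; limma adjusted p = 0.0134).

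Of the 3 TEAD factors besides Tead1, the difference was thus positive for each, and with the 75th percentile scaling it passed the test for Tead3 among them. The sign of Tead2 was not stable: probe A_55_P2129271 gave -0.04 without icKO replicate 1, and within slide row 1 the Tead2 probes gave -0.14 (A_55_P2129271) and -0.11 (A_55_P2076846). Levels of different TEAD genes were not compared, since signals of different probes have no common scale.

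Yap1 encodes the coactivator YAP. It read 11357.5, 12771 and 12587.6 units in icKO and 4195, 5457 and 5145 units in control (A_55_P1953459), bright on every array and without overlap. Scaled log2 levels were 5.27 ± 0.14 in icKO and 4.54 ± 0.06 in control (SD, n = 3 each). Its promoter window is the first of those printed, with 1 TEAD core. The difference of 0.74 ± 0.11 is 1.67-fold (SE; 95% interval 0.48 to 0.99; limma adjusted p = 0.00282).

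Wwtr1 encodes TAZ, the close relative of YAP. It read 1415, 1631 and 1381 units in icKO and 573, 597 and 585 units in control (A_66_P115116), again without overlap. Scaled log2 levels were 2.22 ± 0.03 in icKO and 1.47 ± 0.12 in control (SD, n = 3 each). The difference of 0.75 ± 0.10 is 1.68-fold (SE; 95% interval 0.51 to 0.99; limma adjusted p = 0.00214). The Yap1 and Wwtr1 differences lay above those of 89.8% and 90.1% of all probes tested. Both kept their direction and their call under normexp (0.86 and 0.86). With spike-in scaling, which adds 0.44 to every difference, they were 1.18 and 1.19.

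Slide column and genotype are partly confounded, since column 1 held control arrays alone and column 3 icKO arrays alone. Within slide column 2, which holds 1 icKO array and 1 control array, the differences were 0.82 for Tead3, 0.61 for Yap1 and 0.74 for Wwtr1, about as large as over all arrays. A fit with slide column as a block takes its differences from that same pair of arrays and leaves 2 residual degrees of freedom. The SE of the Yap1 difference went from 0.11 to 0.20, so calls lost or kept in this fit do not measure an effect of position. In it the calls of Tead3, Yap1 and Wwtr1 were lost (limma adjusted p = 0.0539, 0.114 and 0.0769). The Tead1 calls were lost too (-0.30 and -0.57; limma adjusted p = 0.34 and 0.126), while those of Vgll2 and Vgll3, described next, held (limma adjusted p = 0.0183 and 0.0193).

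**Figure D3:**
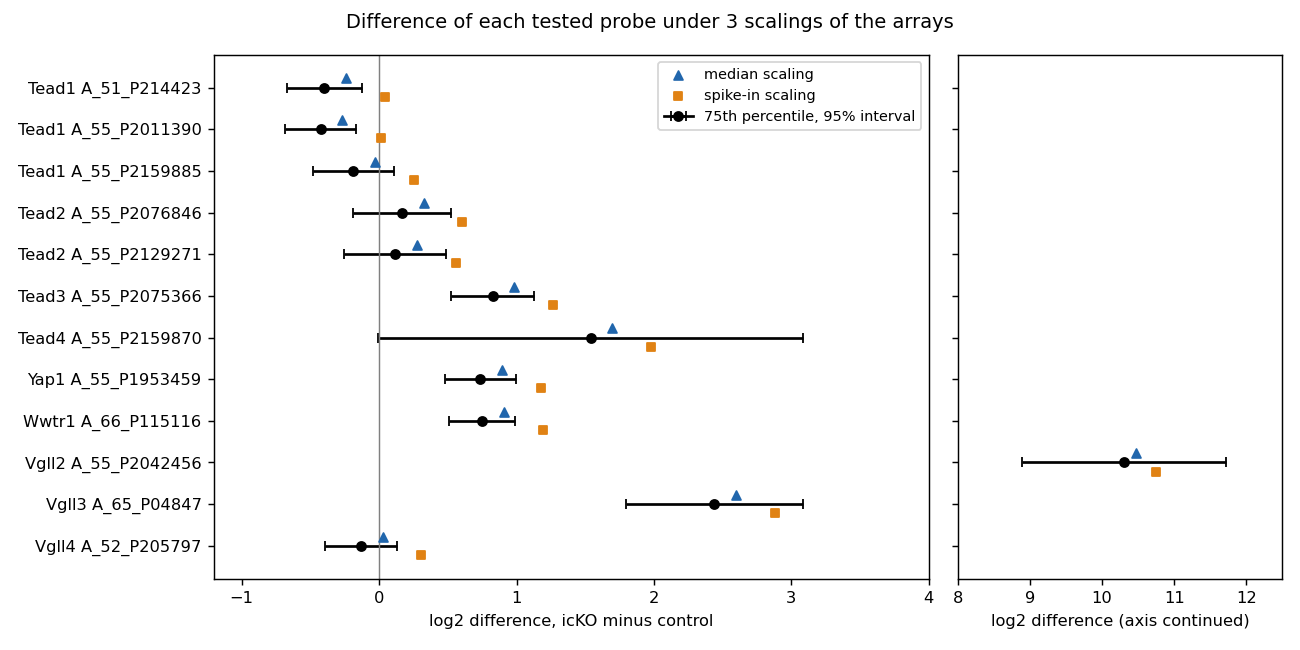
Log2 difference, icKO minus control, of each tested member probe with its 95% interval under 75th percentile scaling (points), and its value under median scaling (triangles) and spike-in scaling (squares), with the axis continued in a second panel for Vgll2. Tead3, Yap1, Wwtr1, Vgll2 and Vgll3 lie above 0 under all 3 scalings drawn, while all 3 Tead1 probes lie below 0 with the 75th percentile and above it with the spike-ins.

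Vgll2, a TEAD cofactor known for its expression in skeletal muscle, was bright on all icKO arrays and dim on all control arrays, and its printed promoter window holds no TEAD core. Its probe (A_55_P2042456) read 29770.3, 43741 and 32623 units in icKO and 11.1, 55.3 and 10.2 units in control. Of the control arrays only replicate 2 was well above background. That control spot had 0.186%, 0.126% and 0.17% of the signal on icKO arrays 1, 2 and 3. The fitted log2 difference was 10.31 ± 0.59 (SE; limma adjusted p = 0.000176), whose size is uncertain because it rests on dim control spots. Set against the lowest signal well above background on each control array where the probe was dimmer, icKO was at least 978-fold brighter. Leaving out 1 array at a time gave bounds of 768-fold to 1419-fold. A probe of the estrogen receptor gene Esr1 had a like pattern, with a fitted difference of 8.59 ± 1.08 of equally uncertain size (SE; limma adjusted p = 0.00171). It read 1160.9, 12107 and 7365 units in icKO and 3.66, 31.9 and 4.62 units in control, and control replicate 2 was again the only control above background. The other Esr1 probes were too dim to be tested, A_52_P237077 being above background on 0 arrays and A_51_P474658 on 1 icKO array. Only icKO mice are labelled with CreER, and whether the bright probe read the Esr1 gene or that transgene was not tested.

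Skeletal muscle markers had no single direction. Of 12 such markers 4 were tested. The troponin Tnnt3 was higher (1.36 ± 0.20, SE), but only 1 of its 3 control spots was above background. It passed the filter through its icKO arrays alone, and the size of its rise rests on dim control spots. The troponin Tnni2 and the calcium pump Atp2a1 were lower (-1.96 ± 0.20 and -1.28 ± 0.11). The calcium-binding Pvalb gave -0.32 ± 0.19 (limma adjusted p = 0.21). The summed level of these 4, most of it from Atp2a1, was 7.04 to 8.07 in icKO and 17.3 to 19.1 in control, in units of the 75th percentile. The myogenic factors Myod1, Myog, Myf5 and Myf6 and the skeletal myosins Myh1, Myh2 and Myh4 did not pass the filter on dim probes in either group. The genes next to Vgll2 on its chromosome that were tested differed far less. Lilr4b and Lilrb4a, both leukocyte receptors, gave 1.61 ± 0.34 and 1.39 ± 0.19 before it. Behind it Dcbld1 and Gopc gave -0.10 ± 0.12 and 0.44 ± 0.09 (SE).

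Vgll3, a cofactor expressed in muscle and fat, read 53.6, 47.3 and 32.5 units in icKO and 6.66, 5.84 and 3.96 units in control (A_65_P04847). The 3 icKO spots were well above background and 0 of 3 control spots were. It was at least 1.68-fold brighter in icKO, with bounds of 1.505-fold to 1.87-fold when 1 array was left out. The fitted difference was 2.44 ± 0.27 (SE; limma adjusted p = 0.00112), whose size is uncertain because it rests on dim control spots. Under normexp, whose offset of 50 units by itself shrinks such dim differences, the fitted difference was 0.17 (limma adjusted p = 0.194). The probe is close to the dimmest that the arrays measure.

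Vgll4, the family member that competes with YAP for TEAD factors, read 224, 234 and 193 units in icKO and 135, 195 and 151 units in control (A_52_P205797). After scaling the groups overlapped, at -0.55 ± 0.06 in icKO and -0.41 ± 0.14 in control (SD, n = 3 each). The difference of -0.13 ± 0.11 did not pass the test (SE; 95% interval -0.39 to 0.13; limma adjusted p = 0.355), and its sign turned with median (0.02) and spike-in (0.31) scaling. Vgll1, known mainly from epithelia and placenta, had 0 of 6 arrays well above background on either probe. Its probe A_55_P2042451 read 6.25, 7.38 and 5.84 units in icKO and 7.32, 5.34 and 3.82 units in control. Its probe A_55_P2042452 read 13.0, 9.29 and 5.58 units in icKO and 5.93, 11.9 and 10.9 units in control. Vgll1 was therefore not detectable in either group on these arrays, and no difference was tested.

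**Figure D4:**
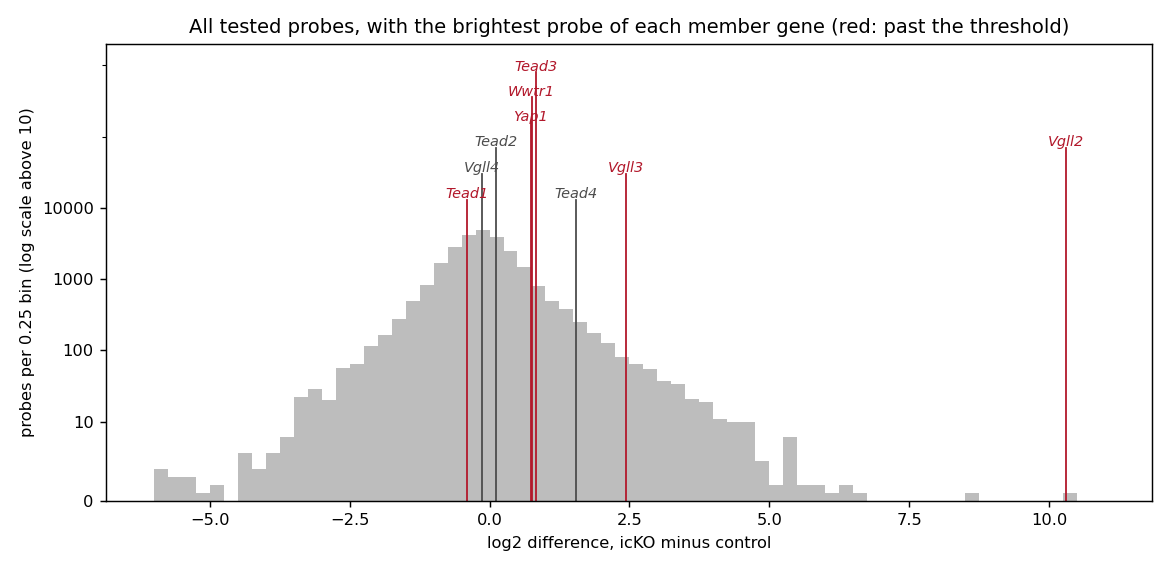
Number of tested probes (log axis above 10, linear below) by log2 difference, icKO minus control, in bins of 0.25, with a line for the brightest probe of each member gene, red where it passed the test. Tead1, Tead2 and Vgll4 lie in the middle of the 26152 probes, and Vgll2 is drawn at its fitted value of 10.31, whose size rests on dim control spots.

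The kinases and upstream regulators of the Hippo pathway control YAP and TAZ from above. Of 25 listed genes 23 were tested, 9 rose and 1 fell, with a median difference of 0.22. Over all genes by their brightest probe 48.1% passed the test, 20.3% higher and 27.8% lower, and the median difference was -0.07. Ptpn14, a phosphatase that binds YAP, read 708, 638 and 632 units in icKO and 240.2, 245 and 220.5 units in control (0.91 ± 0.13, SE; limma adjusted p = 0.00307). Stk3, the core kinase MST2, read 306, 384 and 324 units in icKO and 144, 160 and 148 units in control (0.58 ± 0.10; limma adjusted p = 0.00566). Other core components that rose were Stk4, Sav1, Lats1 and Mob1b, at differences of 0.35, 0.53, 0.51 and 1.31. Lats2 gave -0.09 (limma adjusted p = 0.434) and Mob1a 0.08 (limma adjusted p = 0.808), and neither passed. Amot, an angiomotin that binds YAP, was the 1 that fell (-1.26 ± 0.16; limma adjusted p = 0.00188), reading 401, 455 and 502 units in icKO and 754, 749 and 667 units in control. The count of rises was 15 with spike-in scaling.

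Partners that share DNA or the activation complex with TEAD factors gave counts near those of all genes. Of 16 tested, 2 rose and 5 fell, with a median of -0.23, beside 27.8% lower and 20.3% higher among all genes. Scaling to the spike-ins made the counts 4 and 1. The 7 calls became 3 without control replicate 2 or control replicate 3, and 4 without icKO replicate 1. Parp1, a poly(ADP-ribose) polymerase reported to bind M-CAT elements with TEAD1, gave -1.11 ± 0.14 (SE; limma adjusted p = 0.0016). Mef2c, a muscle transcription factor, gave -0.72 ± 0.12, or -0.28 with spike-in scaling, where it did not pass (limma adjusted p = 0.249), and Irf2bp2, a YAP and VGLL4 partner, rose by 0.70 ± 0.11. Max, the E-box factor, rose by 0.36 ± 0.11 (SE; limma adjusted p = 0.0371). That call was lost in 9 of 22 alternatives, among them leaving out any array but icKO replicate 3 (adjusted p = 0.066 to 0.0934). Srf, which binds TEAD1 in muscle, gave -0.10 (limma adjusted p = 0.384).

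Readout genes of the YAP-TEAD complex, taken from work on cultured cells, were mostly higher in icKO ventricles. Of 25 tested 14 rose and 2 fell, with a median of 0.62, beside 20.3% higher and 27.8% lower among all genes. This list shares Ptpn14, Amotl2, Ajuba and Lats2 with the Hippo list, so the rise of Ptpn14 counts in both. Scaling to the spike-ins made the counts of rises and falls 17 and 1. Among the 24 readouts above background on all 6 arrays, 13 rose and 2 fell. Ccn2, a secreted matricellular protein, read 50269, 47628 and 52405 units in icKO and 3500.5, 2430.1 and 2436 units in control (3.61 ± 0.24, SE; limma adjusted p = 0.000254). Ankrd1, a stress-responsive sarcomere and nuclear protein, rose by 1.34 ± 0.24, and the peptide hormone gene Edn1 by 1.72 ± 0.17. Ccn1, the relative of Ccn2 that serves beside it as a readout, gave 0.15 ± 0.16 and did not pass (limma adjusted p = 0.466). Dock5 and Dlc1 were the 2 that fell (-1.10 ± 0.14 and -0.50 ± 0.15). The Dlc1 call is weak: it was lost with its sign kept in 12 of 22 alternatives. These include median scaling (-0.34; limma adjusted p = 0.0859), spike-in scaling (-0.06; limma adjusted p = 0.86) and leaving out any array but control replicate 1. With no scaling, which is not among those 12, its sign turned and the call was lost too (0.08; limma adjusted p = 0.745). Ccn2 and Igfbp3 are also made by fibroblasts, whose markers rose as given above, and the part of those cells in these differences was not tested.

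Muscle genes with M-CAT elements in their promoters were mostly lower. Of 8 tested, 0 rose and 6 fell, beside 20.3% higher and 27.8% lower among all genes. With spike-in scaling 1 rose and 4 fell. The median was -1.28, or -1.10 with Adra1a at its bound. Ckm, the muscle creatine kinase, read 8371, 7643 and 7554 units in icKO and 25613, 30729.7 and 25129 units in control (-2.37 ± 0.12, SE; limma adjusted p = 0.000136). Acta1, skeletal alpha-actin, read 3540, 4259 and 6641 units in icKO and 22554, 16465 and 21588 units in control (-2.69 ± 0.32). Adra1a, an alpha-adrenergic receptor, was at least 2.68-fold dimmer in icKO, where it was above background on no array. It passed the filter through its control arrays alone, so that a difference was built into its selection. Among the 7 genes of this list above background on all 6 arrays, 0 rose and 5 fell. Myh7, the slow myosin heavy chain, read 41491, 31776 and 48623 units in icKO and 12917, 27152 and 14508 units in control, without overlap before scaling, but did not pass (0.64 ± 0.30; limma adjusted p = 0.126). This list shares Myh6 and Tnnt2 with the cardiomyocyte markers, of which 11 of 12 fell.

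**Figure D5:**
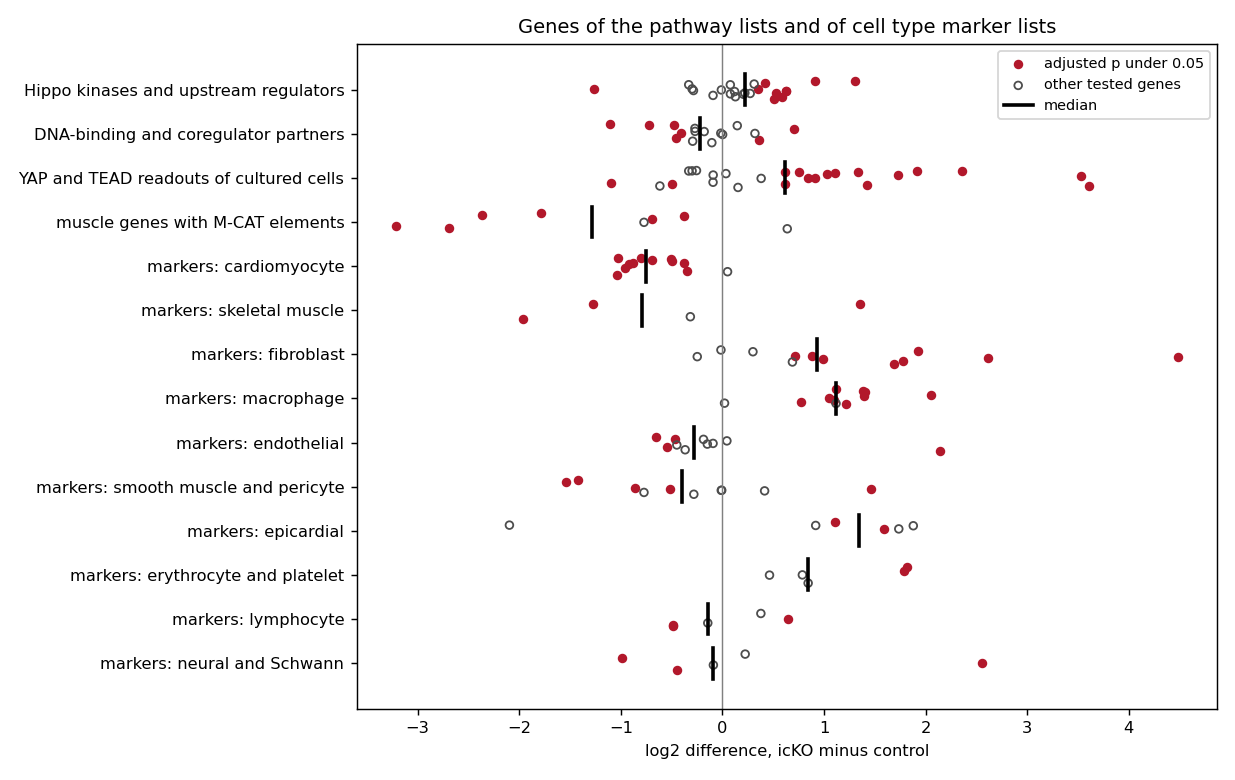
Log2 difference, icKO minus control, of each tested gene in the 4 lists around the TEAD factors and in 10 lists of cell type markers, with filled points for genes that passed the test and a bar at each list's median. The median lies at 0.62 for the readout genes and at -1.28 for the M-CAT genes, beside 0.93 for fibroblast and -0.75 for cardiomyocyte markers.

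Genes whose 6 array values ran most alike to the brightest Tead1 probe were Ccdc138, Hipk4, BC051142, Ehmt1 and Ankrd2, with Pearson's r of 0.992, 0.991, 0.990, 0.990 and 0.989 over the 6 arrays. This is a description over arrays that share the genotype difference, and 268 of 12974 genes had an r over 0.95.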

How the data were processed

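Cy3-labelled cRNA from 6 ventricles was hybridised to 1-colour Agilent arrays, per the labels' protocols. The scanner files hold intensity on a linear scale from Feature Extraction 11.0.1.1 (array design 028005, mm9), per the file headers, whereas the submitters' processing notes name version 9.1. The processed signal was background-subtracted within each array, per the file headers. The authors' deposited value table holds linear intensity too, scaled by a method not given in the sources used here, and served as an alternative.

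The 75th percentile of an array was taken over the linear processed signals of all its non-control spots, outlier spots included. Its log2 was taken from the log2 processed signals. Outlier spots were then left out and a probe's spots averaged. Probes passed the filter if all 3 arrays of a group, or of both, showed them well above background. Of 55681 probes 26152 were kept and fitted with limma 3.58.1 under R 4.3.3 (lmFit, eBayes and genotype as sole term), and p-values were Benjamini-Hochberg adjusted against a threshold of 0.05. An "at least" fold sets the bright group against the higher of the dim spot's own signal and the lowest signal well above background on its array. In lists the probe brightest over all 6 arrays represents its gene. Names came from RefSeq (GRCm38.p6). The rule for named genes took all members, per list the 2 rises and 2 falls of smallest p at most, 6 fixed genes, and 5 genes most like Tead1. Genes named beyond it were chosen after their values were seen. They are Stk4, Sav1, Lats1, Lats2, Mob1a, Mob1b, Amotl2, Ajuba, Srf, Igfbp3, the skeletal muscle markers and the neighbours of Vgll2. Members, lists and tests were chosen with earlier results of these data known. The steps were tested on simulated data. Depth of an array is not a count, so the number of arrays limits the precision. Alternatives covered scaling, background correction, the filter, slide position, replicate number and leaving out each array.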

Additional observations from a re-analysis of the deposited data

How the results depend on the processing

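The number of arrays, the 75th percentile scaling and the dimness of Tead3, Tead4, Vgll1 and Vgll3 limit these results. Normexp was run on the median pixel signals, chosen after seeing the data. The planned version on mean signals could not be run, because the scanner files hold no mean signals. Slide column as a block was also added after seeing the data. Replicate numbers did not pair the arrays (correlations of same-numbered deviations of -0.06, -0.13 and -0.003), and with the replicate block 9118 probes passed in place of 11595, 5 member probes in place of 7, 3 partners in place of 7, 9 Hippo genes, 13 readouts and 5 M-CAT genes. With slide column as a block the counts were 3704 probes, 2 member probes, 2 Hippo genes, 2 partners, 7 readouts and 3 M-CAT genes. That fit has 2 residual degrees of freedom and takes its differences from the 1 icKO array and 1 control array of column 2. With no filter on dim probes 7335 probes, 5 Hippo genes and 3 partners passed, and Hippo genes numbered 16 with spike-in scaling and 20 with no scaling. Leaving out 1 array at a time gave 8727 to 10473 probes, 5 to 7 member probes, 7 to 9 Hippo genes, 3 to 5 partners, 13 to 15 readouts and 4 to 7 M-CAT genes. The Tead1 probes turned to 0.042 and 0.013 with spike-in scaling and to 0.18 and 0.15 with no scaling, where Dlc1 also turned to 0.083. Vgll2 kept its direction and call under all 19 other settings run on its probe (8.02 to 11.03). The causes of these shifts were not tested.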

Other observations

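Among 40 genes that neighbour a member on its chromosome and were tested, 16 passed the test (limma, adjusted p under 0.05), against 48.1% of all genes.

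Single arrays stood out at 2 members. On control replicate 2, 67 of 26152 probes lay more than 2 log2 units above both other control arrays, against 21 on control replicate 1 and 17 on control replicate 3. Vgll2 was above background among controls on replicate 2 alone. For Tead4, icKO replicate 3 was the high array, and 28 probes lay more than 2 log2 units above both other icKO arrays there, against 59 on icKO replicate 1 and 9 on icKO replicate 2. Of 20 probes with a fitted log2 difference over 5 that were above background on all icKO arrays, 9 were above background on no control array.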
